A study of Mus musculus with 8 samples.

Results

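The nuclear-encoded subunits of the mitochondrial respiratory chain were read from every probe set whose platform annotation gives a single symbol that begins with Nduf, Uqcr or Atp5, or with Cox followed by 4, 5, 6, 7 or 8, or that is Sdha, Sdhb, Sdhc or Sdhd. This rule uses names and no measured value. It gave 179 of the 45101 probe sets, for 90 genes: 36 of complex I, 4 of complex II, 8 of complex III, 17 of complex IV, 17 of complex V and 8 complex I assembly factors, whose symbols begin with Ndufaf. A further 10 probe sets whose annotation joins a symbol of this kind with another were left out.

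The arrays came from cultured subcutaneous preadipocytes, cells that can become fat cells, isolated from day 2 newborn mice of the C57BL/6 background. All samples, the controls too, had the genotype Dicer lox/lox and received an adenovirus, at an MOI of 750 and with polybrene at 4 µg/mL. The 4 control samples were given Ad5CMVeGFP, which carries GFP, and the 4 Dicer knockout samples Ad5CMVCre-eGFP, which carries Cre recombinase. RNA was taken 4 days later, and 1 array was run per sample. No group had Cre virus in cells without floxed Dicer, so effects of the Cre virus and of Dicer loss cannot be told apart. The labels call the samples biological replicates 1 to 4 but name no animals or cultures, so a p-value here reflects only the spread among these samples, which may be technical.

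The respiratory chain sits in the inner mitochondrial membrane. Complex I (NADH dehydrogenase) and complex II (succinate dehydrogenase) pass electrons to ubiquinone, complex III (cytochrome bc1) passes them to cytochrome c, and complex IV (cytochrome c oxidase) passes them to oxygen. Complexes I, III and IV pump protons, and complex V (ATP synthase) lets them flow back to make ATP. Most subunits are encoded in the nucleus, a small set is encoded in mitochondrial DNA, and complex II is wholly nuclear. Brown fat is known for its high content of these proteins.

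Values are array signals on the authors' scale, with a 2% trimmed mean of 1500 on every array and a median of 321.1 to 418.9. Differences are of log2(signal + 73.1), knockout minus control, so those of dim probe sets are understated. Dicer1, the targeted gene, had 2 tested probe sets; where they lie relative to the floxed segment is unknown here, so they check nothing about the deletion. The brighter read 1140.7 to 2113.7 in controls and 1110.1 to 1403.8 in knockouts (log2 difference -0.15, SE 0.20), with overlap. All 9 preadipocyte and fibroblast markers were tested and summed to 320585.5 to 391498.3 in controls and 294234.2 to 354453 in knockouts. Their median difference was -0.09, with 3 above 0. Dlk1 (-0.72) was the 1 called, lower in the knockout by the paired limma fit (adjusted p = 0.044) and not by the unpaired one. Of all tested probe sets 0.0481% were called in the paired fit. At an unadjusted p under 0.05 the paired limma fit had 1 of the 9 higher and 3 lower, and the unpaired one 0 and 0. The paired shares of all tested probe sets were 4.67% and 4.47%. Of the 7 white fat cell markers 4 were tested and 0 called by limma in either fit. At an unadjusted p under 0.05 the unpaired limma fit had 0 higher and 0 lower, and the paired one 1 higher and 0 lower. Over all tested probe sets 4.67% were higher in the paired fit at this limit. The list summed to 13894.6 to 39578 in controls and 13679.5 to 39903.4 in knockouts. Lpl, the lipase that frees fatty acids, was bright at 10574.5 to 34282.2 in the controls and 10006.4 to 32254.1 in the knockouts, and Fabp4, a fatty acid carrier, read 2079.7 to 3941.2 in the controls and 1877.4 to 6206.2 in the knockouts (0.55, SE 0.34; paired limma adjusted p = 0.251). Pparg had 0.28 (SE 0.21), and Retn went the other way with -0.26 (SE 0.24). Adipoq and Lep, the hormones of mature white fat cells, were too dim to be tested. Of the 8 brown fat markers 4 were tested (Ppargc1a, Dio2, Prdm16 and Elovl3) and 0 called by limma in either fit. At an unadjusted p under 0.05 the unpaired limma fit had 0 higher and 1 lower, Ppargc1a, against 2.08% and 1.69% of all tested probe sets. The paired one had 0 higher and 1 lower, against 4.67% and 4.47%. The list summed to 2348.5 to 3531.6 in controls and 2185.9 to 2888.6 in knockouts. Ucp1 and Cidea, which define brown fat cells, were too dim. The part of these markers in the values of the respiratory chain was not tested.

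The promoters of these genes show letters that the selection did not use. Of the 90 genes, 74 matched the promoter table of RefSeq (GRCm38.p6), which gives 250 bases before and 50 after each start. The element of NRF1, nuclear respiratory factor 1, was searched on both strands as GCGCA, any base, GCGC. It was found for 17 of the 74 genes (23%), against 10.6% of 10554 other genes with a tested probe set. The ETS core CCGGAAG, which GABP also binds, was found for 19 (25.7%, against 18.5%), and AAGATGGC, the core of the YY1 element, for 10 (13.5%, against 4.79%). The Sp1 box GGGCGG was found for 35 (47.3%, against 66.2%), and TATAAA for 8 (10.8%, against 9.64%). A gene counted if any of its promoters matched, and the other genes had more promoters each. The 74 genes had 79 and the 10554 had 13479. By promoter, the Sp1 box was found in 36 of 79, against 8047 of 13479. The 74 also include genes without a tested probe set, such as Cox7a1 and Cox8b. No motif contains another. A match is a run of letters and says nothing of binding in these cells. By complex, the NRF1 letters were found for 5 of 32 genes of complex I, 2 of 3 of complex II, 1 of 5 of complex III, 1 of 12 of complex IV and 6 of 15 of complex V. The 150 bases before the start are shown for Sdhd, Cox6a1 and Atp5h, which hold both the NRF1 and the ETS letters there, and for Sdha, which holds the NRF1 letters 3 times. All 4 lie on the minus strand and are written 5′ to 3′ in gene direction, with both motifs in capitals on whichever strand they match.
Sdha, chr13:74350241-74350390: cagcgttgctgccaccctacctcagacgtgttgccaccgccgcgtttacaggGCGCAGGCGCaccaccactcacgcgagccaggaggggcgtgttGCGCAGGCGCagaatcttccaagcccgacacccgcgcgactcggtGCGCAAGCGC
Sdhd, chr9:50603850-50603999: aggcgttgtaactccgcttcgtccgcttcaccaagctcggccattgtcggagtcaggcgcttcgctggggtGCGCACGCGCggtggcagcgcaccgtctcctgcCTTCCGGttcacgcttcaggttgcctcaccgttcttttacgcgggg
Cox6a1, chr5:115348959-115349108: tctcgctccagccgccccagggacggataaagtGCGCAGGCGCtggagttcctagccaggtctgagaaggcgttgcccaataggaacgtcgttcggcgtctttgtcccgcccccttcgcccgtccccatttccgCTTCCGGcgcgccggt
Atp5h, chr11:115419920-115420069: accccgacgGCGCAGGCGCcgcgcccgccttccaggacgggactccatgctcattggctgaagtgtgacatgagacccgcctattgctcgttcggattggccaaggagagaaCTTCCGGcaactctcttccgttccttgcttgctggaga

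No respiratory chain probe set passed the test between knockout and control. Of the 179, 160 passed the filter on low values and were tested, for 86 of the 90 genes; the 19 others read 4.2 to 438 on any array. By limma, with p-values adjusted (Benjamini-Hochberg) across the 27022 probe sets tested, 0 were called higher and 0 lower, and the smallest adjusted p among them was 0.999. Of all tested probe sets, 0.0037% were called in this unpaired fit. In the paired limma fit, which takes the replicate number as a block, 0 members were called, against 0.0481% of all tested probe sets, with a smallest adjusted p of 0.239. At an unadjusted p under 0.05, the unpaired limma fit had 2 members higher (1.25%, against 2.08% of all tested) and 0 lower (against 1.69%). The paired limma fit had 3 higher (1.88%, against 4.67%) and 5 lower (3.12%, against 4.47%). In 1 tested member (0.625%, against 1.4%) every knockout array lay above every control array, and in 0 did every one lie below (against 1.06%). Each of these shares was below that of all tested probe sets. Over the 160, the knockout was lower in 4 of 4 pairs for 15 (9.38%, against 8.26% of all tested) and higher in 4 of 4 pairs for 5 (3.12%, against 8.62%), so a member that is lower in every pair is met about as often as over the whole array. Of the 19 members not tested, 1 dim Ndufa12 probe set read 156.5 to 240.7 in the controls and 111 to 152.2 in the knockouts, without overlap, and the 3 bright Ndufa12 probe sets overlapped. The shares without overlap given above cover tested probe sets only, so this dim case cannot be set against a background.

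**Figure D1:**
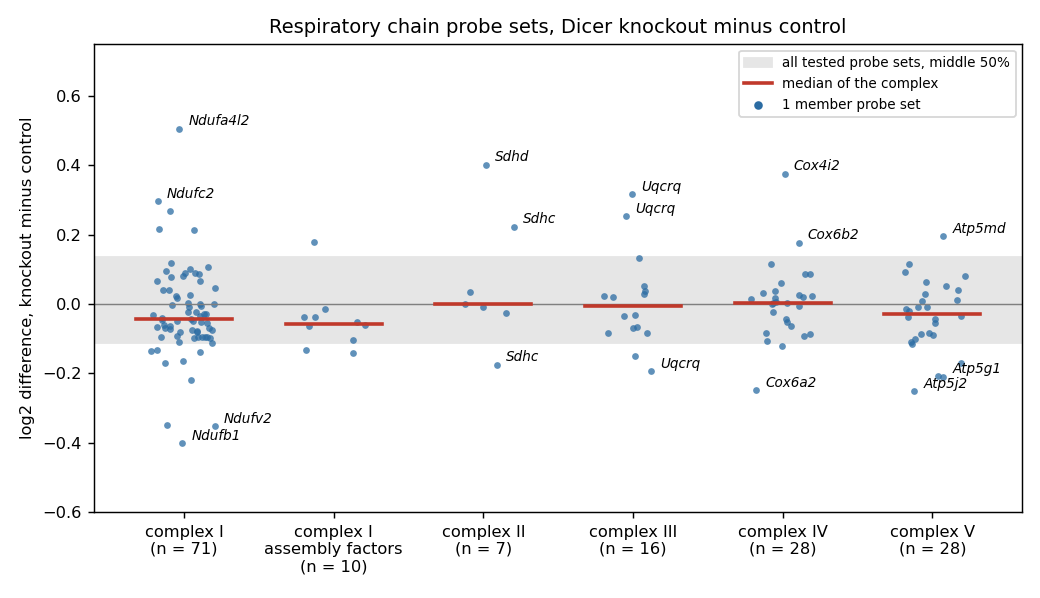
Log2 difference, knockout minus control, of each of the 160 tested probe sets (points) by complex, with the median of each complex (red line) and the middle 50% of all tested probe sets (grey band). The medians lie between -0.06 and 0.00, and the points farthest out are single probe sets such as those of Ndufa4l2, Sdhd and Ndufb1.

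The 5 complexes had much the same median difference. It was -0.04 for complex I (46 of 71 tested probe sets below 0), 0.00 for complex II (3 of 7), -0.01 for complex III (8 of 16), 0.00 for complex IV (11 of 28) and -0.03 for complex V (18 of 28). The assembly factors of complex I had a median of -0.06, with 9 of 10 below 0. Their direction differed between pairs, with medians of 0.09, -0.12, 0.09 and -0.15 in pairs 1 to 4. Over all members the median was -0.03, with 95 of 160 (59.4%) below 0, beside 0.01 and 48.7% over all tested probe sets. Members were brighter than most. Among the 123 in the brightest 10% of probe sets the median was -0.03, with 61.8% below 0. All probe sets of that brightness had -0.01 and 53.2%. The medians of complexes I to V lay closer together than each one varied between replicate pairs, where its SD was 0.05 to 0.11. Part of that variation was shared: all 5 medians were below 0 in pair 1 and above 0 in pair 3. The SD therefore does not measure how far complexes differ within a pair. In pair 4 their medians ran from -0.05 to 0.10. These medians describe the probe sets and carry no test.

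The 95% confidence intervals of the unpaired fit give how large a difference the arrays leave possible. They lay within a log2 difference of 0.5 either way, or 1.41-fold, for 133 of the 160 probe sets, and within 2-fold for 159. The exception to the wider limit was Ndufa4l2, with an interval of -0.35 to 1.36. The median interval reached 0.26 to either side of the estimate, and in the paired fit 0.18. Most members were bright: 123 of the 160 (76.9%) lay in the brightest 10% of probe sets. There, their median absolute difference was 0.06 and 1 of 123 (0.813%) exceeded 0.3, beside 0.08 and 4.09% over all 4504 probe sets of that brightness. Among the 37 dimmer members the median absolute difference was 0.14 and 6 (16.2%) exceeded 0.3, beside 0.14 and 18.5% over all dimmer tested probe sets. The median SD within groups was 0.16 for the bright and 0.29 for the dim members.

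**Figure D2:**
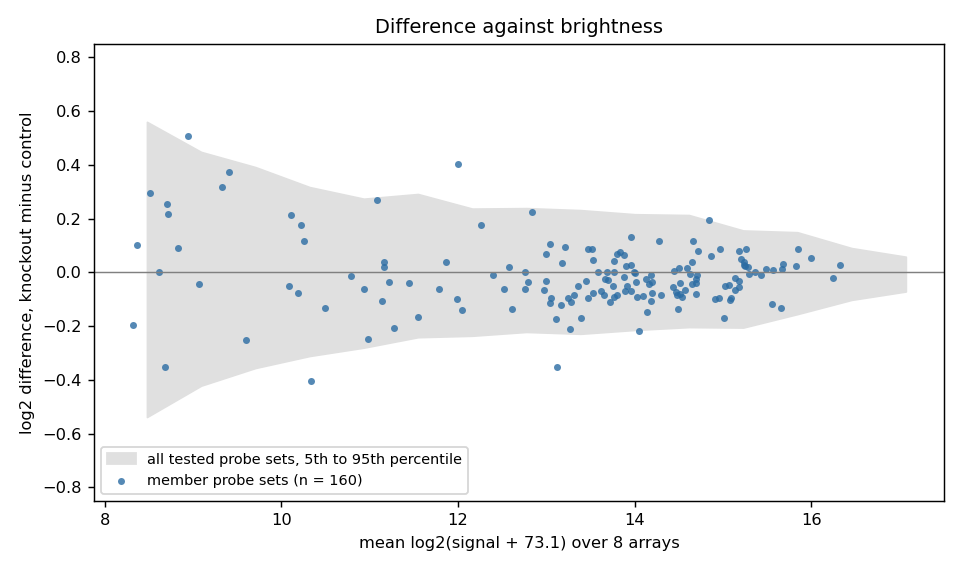
Log2 difference, knockout minus control, of the 160 member probe sets (points) against their mean log2(signal + 73.1) over the 8 arrays, with the 5th to 95th percentile of all tested probe sets of like brightness (grey). Most members sit at the bright end, close to 0, and 6 of the 7 with differences beyond 0.3 are among the 37 dimmer ones.

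Of complex I, the core subunits that carry electrons from NADH along iron-sulfur clusters gave 16 tested probe sets for 6 genes. Their median difference was -0.07, with 14 below 0. Ndufs8 gave 6 of the 16 and Ndufv1 and Ndufv2 gave 3 each, so the 14 are not separate observations. The 53 probe sets of 27 accessory subunits had a median of -0.03 and 32 below 0. Ndufv1, which binds NADH, was picked out after its values were seen: its 3 probe sets had differences of -0.11 (SE 0.11), -0.17 (SE 0.12) and -0.10 (SE 0.10), and each was lower in the knockout in 4 of 4 pairs. The brightest, 1415967_at, read 11864.2, 11926.4, 10656.3 and 10943.9 in the controls, replicates 1 to 4, against 10173.8, 11339.9, 8287.8 and 10743.9 in the knockouts. Knockout array 3 was the lowest, and the groups overlapped (limma adjusted p = 0.999, paired adjusted p = 0.573). Ndufa1, a membrane-arm subunit and the brightest complex I member, averaged 54022 ± 3845 with the control virus, 49187 ± 2967 with the Cre virus (SD, 4 arrays each), a log2 difference of -0.13, SE 0.09. It too was lower in 4 of 4 pairs and did not pass (paired limma adjusted p = 0.627).

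Ndufs4, an accessory subunit of the arm that oxidises NADH, held the tested member whose groups did not overlap. Its probe set 1438166_x_at read 1873.5, 1962.7, 1849.9 and 1936.7 in the controls, replicates 1 to 4, against 2287, 2247.5, 2454.8 and 2254 in the knockouts. The lowest knockout array thus lay above the highest control array; the log2 difference was 0.27 (SE 0.11; limma adjusted p = 0.999, paired adjusted p = 0.463). The brightest Ndufs4 probe set, 1448959_at, had a difference of 0.11 (SE 0.12) and the other tested one of -0.08 (SE 0.14), with overlapping groups in both. The gene had no single direction across its probe sets.

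Ndufb1, a small membrane-arm subunit, had the lowest difference of all members. It read 979.3, 1522.5, 2210.3 and 1187.2 in the controls, replicates 1 to 4, against 1145.3, 796.5, 1265.7 and 1043.3 in the knockouts. Control array 3 was high and the knockout was higher in pair 1; the log2 difference was -0.40 (SE 0.23; limma adjusted p = 0.999, paired adjusted p = 0.539). Ndufv2, a core subunit beside Ndufv1, read 15813.4, 8680.2, 7621.9 and 9646.4 in the controls, replicates 1 to 4, against 8891.3, 7664.7, 8293.4 and 6656.4 in the knockouts by 1438159_x_at. Control array 1 was far above the other 7, and the difference was -0.35 (SE 0.19), whereas the 2 brighter Ndufv2 probe sets had -0.04 (SE 0.12) and -0.08 (SE 0.11). Ndufa10, an accessory subunit, had -0.35 (SE 0.24) by a dim probe set and -0.03 (SE 0.12) by a bright one. At the upper end, a dim Ndufc2 probe set had 0.30 (SE 0.30), and its 3 bright ones had -0.09, -0.07 and -0.05. Ndufa3 likewise had 0.22 (SE 0.23) by a dim probe set and -0.14 and 0.02 by bright ones.

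Complex II oxidises succinate and belongs to the citric acid cycle as well. The catalytic head, Sdha and Sdhb, had 3 tested probe sets with differences of -0.03 to 0.04. Sdhb, the iron-sulfur subunit, read 16320.9, 18332.7, 15256 and 22853.4 in the controls, replicates 1 to 4, against 14833.6, 18677.7, 16214 and 21637 in the knockouts. Replicate 4 was the highest in both groups and the groups overlapped (-0.03, SE 0.15; limma adjusted p = 0.999). Sdha, the flavoprotein that holds the active site, had differences of 0.04 (SE 0.13) and -0.01 (SE 0.15), and its 2 other probe sets were too dim to test.

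The membrane anchor of complex II, Sdhc and Sdhd, gave probe sets that went apart. By 1437489_x_at, Sdhd read 3213.7, 3444.4, 2923.7 and 4591.5 in the controls, replicates 1 to 4, against 3887.5, 5857.5, 3980 and 5094.5 in the knockouts. The knockout was higher in 4 of 4 pairs, but control array 4 lay above 2 knockout arrays. The log2 difference was 0.40 (SE 0.17, paired SE 0.11; limma adjusted p = 0.999, paired adjusted p = 0.239), or 1.32-fold. The brighter Sdhd probe set had 0.00 (SE 0.12), with the knockout higher in 1 of 4 pairs. By 1435986_x_at, Sdhc read 5868.8, 7081.3, 5868 and 8240.3 in the controls, replicates 1 to 4, against 7708.5, 7957.5, 6939.8 and 8827.2 in the knockouts, which gave 0.22 (SE 0.13). By its brighter 1448630_a_at it read 8667.8, 9334.6, 8436.5 and 10910.5 in the controls, replicates 1 to 4, against 7469.8, 8932.7, 7447.4 and 9189 in the knockouts, which gave -0.17 (SE 0.12). The first was higher and the second lower in 4 of 4 pairs, the groups overlapped in both, and neither passed (paired limma adjusted p = 0.429 and 0.521). The ending _x_at marks probe sets of which some probes can match other sequences.

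**Figure D3:**
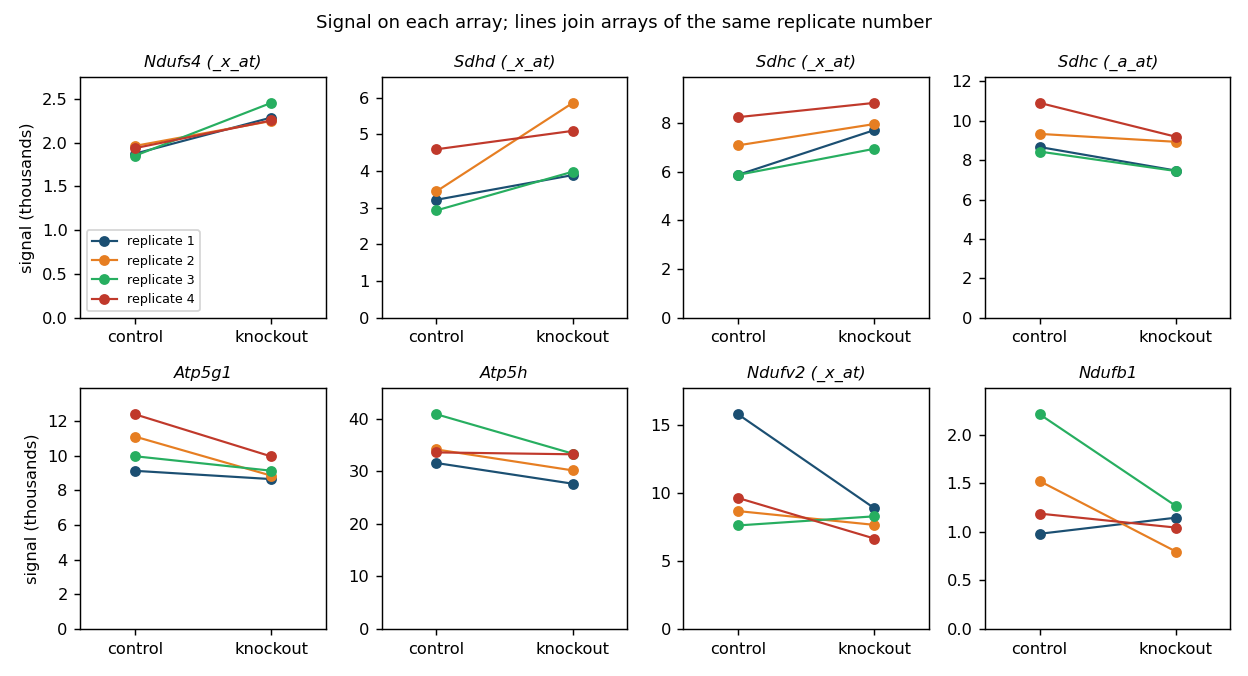
Signal (divided by 1000, axes from 0) of 8 member probe sets on each array, with lines joining the control and knockout arrays of the same replicate number. Ndufs4 (_x_at) is the panel in which all knockout arrays lie above all control arrays, and the 2 Sdhc panels run in opposite directions.

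Such disagreement was found in many genes. Of the 48 genes with more than 1 tested probe set, 17 had differences of both signs, and in 31 the largest difference was not on the brightest probe set. Opposite signs more than 0.3 apart were found in 5 genes: Ndufa3, Ndufc2, Ndufs4, Sdhc and Uqcrq.

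Complex III moves protons by a cycle of ubiquinone. Its core proteins Uqcrc1 and Uqcrc2 and the Rieske iron-sulfur protein Uqcrfs1 had 4 tested probe sets with differences of -0.07 to 0.03. Uqcrb, a small subunit, was the brightest member of the complex. By 1455997_a_at it read 76547.3, 58416.1, 60095.4 and 61907.2 in the controls, replicates 1 to 4, against 59808.8, 72831.3, 70117.7 and 62869.4 in the knockouts. Control array 1 was the highest of all 8, the groups overlapped and the difference was 0.05 (SE 0.11; limma adjusted p = 0.999); its other probe set had 0.13 (SE 0.11). Uqcrq, another small subunit, spanned the widest range of any member gene. Its bright probe set averaged 19148 ± 3379 with the control virus, 17175 ± 2344 with the Cre virus (SD, 4 arrays each), a difference of -0.15, SE 0.14, and the knockout was lower in 4 of 4 pairs. Its 3 dim probe sets had 0.32 (SE 0.21), 0.25 (SE 0.33) and -0.19 (SE 0.31). Uqcrh, the hinge protein that helps bind cytochrome c, had -0.07 (SE 0.14) and -0.09 (SE 0.12).

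Several subunits of complex IV exist in a form found in most tissues and another found in muscle, brown fat, lung or testis. The 9 widely expressed genes gave 19 tested probe sets with differences of -0.11 to 0.09 and a median of 0.01. Cox4i1, a subunit needed for assembly of the enzyme, read 43588.3, 51845.5, 47939.6 and 66516 in the controls, replicates 1 to 4, against 46695.2, 49050.7, 54896.6 and 59583.4 in the knockouts. Replicate 4 was the highest in both groups, and the difference of 0.01 (SE 0.13), which changes sign with median centring, had a 95% confidence interval of -0.27 to 0.30. By their brightest probe sets, Cox7a2 had 0.03 (SE 0.11), Cox6a1 -0.02 (SE 0.10), Cox6b1 -0.05 (SE 0.11) and Cox8a -0.11 (SE 0.10). For Cox8a the knockout was lower in 4 of 4 pairs. Ndufa4, named for complex I, counted there and now known as a subunit of complex IV, had 0.09 (SE 0.11). Cox7a2l, counted in complex IV by its symbol, had -0.09 (SE 0.11), -0.08 (SE 0.11) and -0.12 (SE 0.14).

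The tissue isoforms were dimmer. Cox7a1 and Cox8b, the forms of muscle and brown fat, were not tested: Cox7a1 read 104.1 to 348.3 in the controls and 152.3 to 350.2 in the knockouts, and Cox8b 22 to 110.3 in the controls and 31.7 to 85 in the knockouts. Of the 11 muscle markers 4 were tested and 0 called by limma in either fit, with a median difference of 0.28. At an unadjusted p under 0.05 the unpaired limma fit had 1 higher (Acta1) and 0 lower, against 2.08% and 1.69% of all tested probe sets. The paired one had 1 higher and 0 lower, against 4.67% and 4.47%. The list summed to 2624 to 4117.5 in controls and 3507.8 to 4891.2 in knockouts. The 4 were Acta1 (0.53, SE 0.19), Ckm (0.74, SE 0.46), Des (0.03, SE 0.23) and Actc1 (-0.36, SE 0.25). Acta1, skeletal muscle actin, read 433.3 to 676.4 in the controls and 661.6 to 911.9 in the knockouts, and Myh1, Myh3, Myh6, Myh7 and Myog were too dim. The part of these markers in the values of the isoforms was not tested. Cox6a2, the muscle form of Cox6a1, read 1012.1, 2366.3, 3010.6 and 2851.9 in the controls, replicates 1 to 4, against 1272.7, 1942.1, 2150.5 and 1911.3 in the knockouts by its brighter probe set. Replicate 1 was the lowest in both groups, and the groups overlapped (-0.25, SE 0.29; limma adjusted p = 0.999); its other probe set had -0.04 (SE 0.32). Cox4i2, the form of lung that is induced by low oxygen, read 373.8, 649.3, 524 and 582.6 in the controls, replicates 1 to 4, against 585.8, 555.5, 1056 and 691.3 in the knockouts. Knockout array 3 was high, and the difference was 0.37 (SE 0.23). Ndufa4l2, a paralog of Ndufa4 that is also induced by low oxygen, had the largest difference of all members and the widest interval. It read 136.4, 214.9, 556.5 and 696.7 in the controls, replicates 1 to 4, against 346.6, 694.2, 419.6 and 676.1 in the knockouts. The knockout was higher in pairs 1 and 2 and lower in pairs 3 and 4 (0.51, SE 0.39). The testis form Cox6b2 had 0.18 (SE 0.26), and Cox8c had 0.12 (SE 0.37) and -0.06 (SE 0.18). None of these passed the test.

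Complex V was described by its parts. The catalytic head and central stalk (Atp5a1, Atp5b, Atp5c1, Atp5d and Atp5e) had 9 tested probe sets with a median of -0.02, 5 below 0. The peripheral stalk, which holds the head still, had 7 with a median of -0.02, and the other membrane subunits 9 with -0.01. The c ring, the rotor that proton flow turns, is made of 1 protein encoded by 3 genes, and each tested probe set was below 0: Atp5g1 had -0.21 (SE 0.12), Atp5g2 -0.09 (SE 0.10) and Atp5g3 -0.12 (SE 0.11). Atp5g1 read 9118.1, 11095.3, 9959.1 and 12380.4 in the controls, replicates 1 to 4, against 8641, 8839.4, 9123.8 and 9947.4 in the knockouts. It was lower in 4 of 4 pairs, as was Atp5g3, and did not pass (limma adjusted p = 0.999, paired adjusted p = 0.443). Atp5h, subunit d of the peripheral stalk, is named because it was among the 5 members with an unadjusted paired p under 0.05 on the lower side. By 1423676_at it read 31586.8, 34167.7, 40874.3 and 33609 in the controls, replicates 1 to 4, against 27647.2, 30180, 33369.1 and 33249.1 in the knockouts. It was lower in 4 of 4 pairs, with overlapping groups (-0.17, SE 0.11; paired limma adjusted p = 0.506). The other 4 were Atp5g1 and the probe sets of Ndufb1, Ndufv2 and Sdhc given above. Atp5md, a small subunit, had the highest difference of the complex (0.20, SE 0.18), and dim probe sets of Atp5j2 (-0.25, SE 0.24) and Atp5a1 (-0.21, SE 0.16) were at the lower end.

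Other genes of mitochondrial respiration were also without calls. Of 52 tested assembly factors and electron carriers outside the member genes, 0 were called in either limma fit, with a median of -0.03 and 20 above 0. At an unadjusted p under 0.05 the unpaired limma fit had 0 higher and 1 lower, Atpaf2, which assembles the F1 head (-0.49, SE 0.18). Of 16 genes of the citric acid cycle and pyruvate dehydrogenase 0 were called in either limma fit (median 0.01), and of 76 mitochondrial ribosomal proteins 0 (median -0.02). Their unadjusted counts by unpaired limma were 0 higher and 0 lower for the first list and 0 higher and 2 lower for the second. Of 26 regulators of mitochondrial biogenesis and DNA 0 were called by limma (median -0.07), with 1 higher and 2 lower at an unadjusted p under 0.05. These 3 were Tfb1m, Tefm and Ppargc1a. In the paired limma fit the unadjusted counts were 1 higher and 3 lower of 52 assembly factors and carriers, 0 and 2 of 16 citric acid cycle genes, 1 and 7 of 76 ribosomal proteins and 1 and 3 of 26 regulators. Over all tested probe sets the shares were 2.08% higher and 1.69% lower in the unpaired fit and 4.67% and 4.47% in the paired one. Tefm, the elongation factor of mitochondrial transcription, read 1677, 1949.4, 2159.1 and 2063.1 in the controls, replicates 1 to 4, against 1269, 1438.4, 1256.3 and 1170 in the knockouts. The groups did not overlap (-0.58, SE 0.14, limma adjusted p = 0.999, paired adjusted p = 0.140). Tefm was the 1 of 26 regulators that was lower without overlap. The same held for 1 of 52 assembly factors and carriers, 1 of 16 citric acid cycle genes and 1 of 76 ribosomal proteins. Over all tested probe sets the share was 1.06%. Ppargc1a, a coactivator of respiratory gene transcription, averaged 1119 ± 389.3 with the control virus, 628.8 ± 244.8 with the Cre virus (SD, 4 arrays each), a difference of -0.76, SE 0.29 (paired limma adjusted p = 0.227). Tfb1m, which methylates mitochondrial ribosomal RNA, had 0.38 (SE 0.14).

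The members shared highs and lows across arrays. On control array 4, 129 of the 160 probe sets (80.6%) read above their own mean over the 8 arrays, and on knockout array 4, 114 (71.2%) did. At the other end were knockout array 1 with 40 (25%) and control array 3 with 43 (26.9%). Over all tested probe sets these shares were 43.8% to 57.1%. The median centred level of the members was 0.14 on control array 4 and 0.10 on knockout array 4, and -0.11 on knockout array 1. Within pairs the knockout was higher for 60, 52, 100 and 60 of the 160 probe sets in pairs 1 to 4, and the members' median differences were -0.07, -0.06, 0.09 and -0.05. Over all tested probe sets the pair medians were 0.05, -0.02, -0.04 and 0.01. In bulk RNA, fewer cells of a type and less RNA per cell cannot be told apart.

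The odd-numbered arrays of both groups stood apart from the even-numbered ones in the single mitochondrially encoded subunit found on the array. ND5, a complex I subunit encoded in mitochondrial DNA, read 89801.2, 41963.9, 76217.3 and 36992.5 in the controls, replicates 1 to 4, against 81925.4, 41948.2, 68662.3 and 33748.3 in the knockouts. All odd-numbered arrays were above all even-numbered ones, and the difference between knockout and control was -0.10 (SE 0.31, paired SE 0.07). The 18S ribosomal RNA 5′ control probe set ran the other way, at 5905.9 to 14007.2 on odd-numbered and 30583.9 to 43029.9 on even-numbered arrays. The middle 18S probe set split less, at 4487.6 to 7280.6 on odd-numbered and 8699.8 to 12977.4 on even-numbered arrays. The 3′ one overlapped, at 3227.7 to 5520.2 on odd-numbered and 5432.8 to 8811.7 on even-numbered arrays. The nuclear-encoded members had a median odd-minus-even difference of -0.14, against -0.01 over all tested probe sets, and the odd and even values did not overlap in 23 of 160 (14.4%), against 12.2%. These 23 ran in both directions. The largest difference of any member, 1.15 for Cox7c (1459885_s_at), had the odd-numbered arrays above, as ND5 did. The part of this split in the members' values was not tested, and each group holds both kinds of array equally. Within odd-numbered pairs the median difference of complexes I to V was -0.02, -0.02, -0.03, 0.01 and 0.02, and within even-numbered pairs -0.06, 0.06, -0.03, 0.00 and -0.09.

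**Figure D4:**
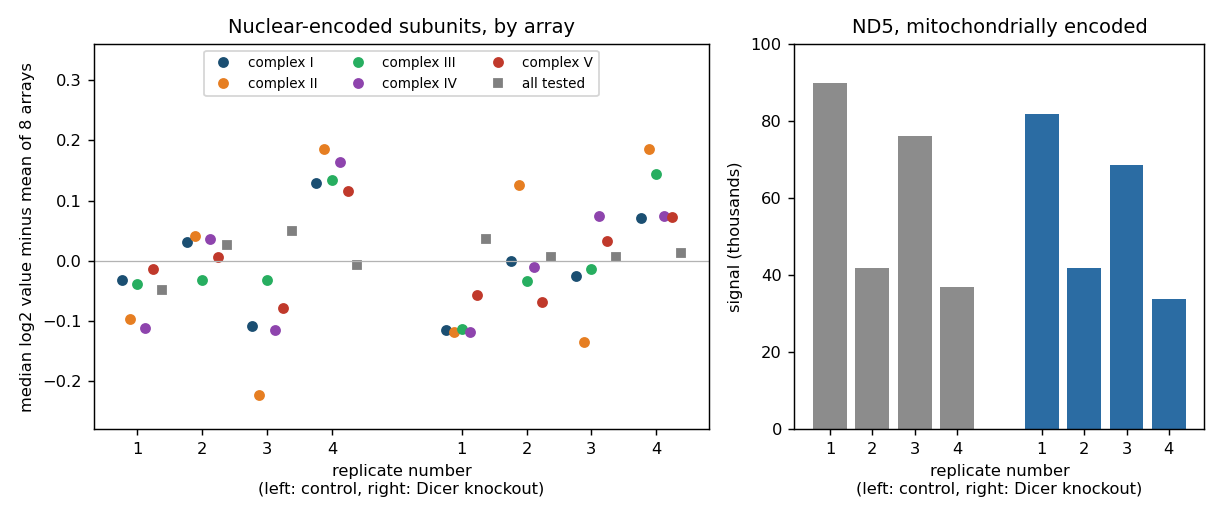
Left, median log2 value of each complex on each array relative to the mean of the 8 arrays, with all tested probe sets in grey. Right, signal (divided by 1000) of the mitochondrially encoded ND5 on each array (bars from 0); odd-numbered arrays of both groups read 68662.3 to 89801.2 and even-numbered ones 33748.3 to 41963.9.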

How the data were processed

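Total RNA of 8 samples was hybridised to Affymetrix arrays per the labels, and GCOS 1.3 and MAS5 are named per the submitters' processing notes. What the authors deposited is an intensity (linear signal) for each probe set; each array has a 2% trimmed mean of 1500, as computed from the values. Other upstream steps are not given in the sources used here. To each value 73.1, the 20th percentile of all values, was added before log2. After removal of 64 array control probe sets, the upper 60% by mean log2 (27022) went into limma 3.58.1 in R 4.3.3 (lmFit and eBayes, trend on; two-sided; Benjamini-Hochberg, threshold 0.05). The code was tested on simulated data. Plots and promoter searches used Python 3.11.15, the plots with matplotlib 3.10.9. The number of arrays limits the precision.

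Complexes were assigned by symbol. The members and lists were chosen with earlier results of these data known. Members named are those called in either fit, the 3 highest and 3 lowest differences and the brightest probe set of each complex, tested ones without overlap between groups, the isoforms, the Sdh genes, and genes whose probe sets differ in sign by over 0.3; others are said to be named after their values were seen. By gene ID, all 179 probe sets kept their symbol in RefSeq.

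Replicate numbers were taken to pair the samples: deviations from the group means over tested probe sets correlated at 0.342, 0.189, 0.199 and 0.373 in same-numbered arrays 1 to 4, each over 0.1. Other pairings gave -0.347 to 0.149, some over 0.1 between arrays both odd or both even. Over the members alone, same-numbered arrays correlated at 0.547, 0.218, 0.225 and 0.408. There, control array 2 correlated more with knockout array 4 (0.277) than with knockout array 2. The alternatives were the replicate block, other filters, pseudocounts, normalizations and array weights, other ways to form the complexes, and leaving out each array or pair.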

Additional observations from a re-analysis of the deposited data

Results flagged for a closer look

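In 6 of 122 groups of 4 arrays of a named member, 1 array stood apart, with a gap to its nearest neighbour above Dixon's 95% critical value; chance gives about 1 in 20. Atp5c1 (1438809_at) read 583 on control array 3, where the other control arrays read 307.5 to 321. Atp5g3 (1454661_at) read 60077.3 on control array 4, where the other control arrays read 45245.4 to 47703.2. Atp5md (1448179_at) read 21796.1 on knockout array 4, where the other knockout arrays read 34502.2 to 36232.6. Atp5o (1437164_x_at) read 16942.5 on knockout array 1, where the other knockout arrays read 21619.1 to 22452.8. Ndufa10 (1418068_at) read 398.9 on knockout array 4, where the other knockout arrays read 249.7 to 270.5. Ndufa3 (1452790_x_at) read 26510.2 on knockout array 2, where the other knockout arrays read 24165.9 to 24340.8. None of these probe sets passed the test between knockout and control.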

How the results depend on the processing

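No member passed the threshold under any of the 28 alternatives where it was tested, and with the replicate block 0 were called higher and 0 lower by limma. Those of the 28 that only changed which members a complex median takes reuse the main fit, so they could not change a call. Those within odd or even pairs covered the medians and the named members only. The smallest adjusted p of a named member was 0.206, for the brighter Cox6a2 probe set in the paired fit without replicate 1. Over the alternatives the median differences ranged over -0.08 to 0.00 for complex I, -0.04 to 0.08 for complex II, -0.07 to 0.04 for complex III, -0.05 to 0.05 for complex IV and -0.09 to 0.03 for complex V. The settings included one chosen after seeing the data, without probe sets ending in _x_at or _s_at. The median of complex V was -0.0939 within even-numbered pairs. That of complex III ranged over -0.0731 to 0.042 when 1 array or pair was left out, the lowest without control replicate 3.

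Some alternatives, the replicate block and the other filters, leave a log2 difference as it is, so their values could not change sign. With such values counted in, 29 of 663 differences of single members changed sign under alternatives on all arrays or within odd or even pairs. Of 732 with an array or pair left out, 76 changed sign, and the cause was not tested. With odd numbered pairs only, these were Atp5c1 -0.0914, Atp5g2 0.00931, Cox6a1 1417417_a_at 0.0109, Cox8a 1448222_x_at -0.078, Cox8c 1455167_at 0.359, Ndufa3 1452790_x_at -0.0206, Ndufc2 1460506_s_at 0.0284, Sdhd 1428235_at -0.125, Uqcrb 1455997_a_at -0.0667, Uqcrq 1437134_at 0.112 and Uqcrq 1452613_at -0.237. With even numbered pairs only, these were Atp5j2 1435395_s_at -0.0257, Cox4i1 -0.119, Cox6a2 1457633_x_at 0.00497, Cox6b1 1436757_a_at 0.00322, Sdha 1426689_s_at 0.0149 and Uqcrb 1416337_at -0.00909. With median centring, these were Atp5j2 1435395_s_at -0.0176, Cox4i1 -0.0121, Cox7a2 1416970_a_at -0.000506, Cox7a2 1416971_at -0.00526, Cox8a 1448222_x_at -0.0243, Ndufa3 1452790_x_at -0.0104 and Sdhd 1428235_at -0.026. With quantile normalization, these were Sdhd 1428235_at -0.00395. With array weights, these were Cox4i1 -0.0123, Cox6a2 1457633_x_at 0.0676, Cox8c 1443789_x_at -0.0116 and Sdha 1426688_at -0.0401. 

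When 1 array or pair was left out, the members with a change of sign had these ranges: Atp5c1 -0.0129 to 0.282, Atp5j2 1435395_s_at -0.0571 to 0.0585, Atp5o -0.0271 to 0.262, Cox4i1 -0.069 to 0.134, Cox6a1 1417417_a_at -0.0662 to 0.0418, Cox6a2 1457633_x_at -0.254 to 0.199, Cox6b1 1436757_a_at -0.115 to 0.0385, Cox6b2 -0.0217 to 0.356, Cox7a2 1416970_a_at -0.0863 to 0.126, Cox7a2 1416971_at -0.0594 to 0.0939, Cox8a 1448222_x_at -0.0535 to 0.0417, Cox8c 1443789_x_at -0.251 to 0.432, Cox8c 1455167_at -0.249 to 0.123, Ndufa3 1452790_x_at -0.034 to 0.0788, Ndufa4 -0.0118 to 0.179, Ndufc2 1416366_at -0.171 to 0.0743, Ndufc2 1455036_s_at -0.113 to 0.0079, Sdha 1426688_at -0.0745 to 0.134, Sdha 1426689_s_at -0.12 to 0.0798, Sdhb -0.123 to 0.0897, Sdhd 1428235_at -0.111 to 0.0621, Uqcrb 1455997_a_at -0.037 to 0.187 and Uqcrq 1452613_at -0.179 to 0.609. Precision is limited by the 4 arrays a group and, for dim probe sets, by signal over background.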
